A study of Mus musculus with 2 samples.

Results

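Lgals1, Lgals3, S100a4, S100a6, S100a10, S100a11 and S100a13 are 7 of the 55487 genes counted in a single-cell library of mouse CD4 T cells. They were taken by gene symbol, and each symbol belonged to 1 row of the expression matrix. The donors were C57BL/6 Foxp3.Cre-YFP mice, either Treg-bmal1KO or Treg-bmal1WT, sampled at ZT0 or ZT12 (zeitgeber time, the hours since lights came on). The pool drew on spleen (32000 sorted cells) and on visceral adipose tissue, or VAT (34000 sorted cells), of animals kept in a reverse-light cycle. All groups carried the Foxp3.Cre-YFP allele, so that Cre, and with it any loss of the clock activator Bmal1, follows the Foxp3 promoter that defines regulatory T cells (Tregs). The sex, age and number of the animals are not given in the sources used here. Cells of each genotype, time and tissue were stained with a hashtag antibody before pooling. The hashtags carry numbers and no tissue, genotype or time, so the 6 hashtags in use were read each on its own and were assigned to none of these. The 6 tags are fewer than the combinations of genotype, time and tissue, so some combinations shared a tag or were absent.

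Galectins are lectins that bind beta-galactoside sugars on glycoproteins. Galectin-1, from Lgals1, is secreted by activated T cells and Tregs and can dampen effector T cells, and galectin-3, from Lgals3, cross-links surface glycoproteins and is abundant in macrophages. S100 proteins are small calcium-binding EF-hand proteins that work mostly as dimers; S100a10, S100a11 and S100a6 bind annexins at membranes, S100a4 binds non-muscle myosin, and S100a13 takes part in the release of proteins that lack a signal peptide. In T cells, several of these genes are known as marks of antigen-experienced and tissue-resident cells, and naive cells hold little of them.

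Every value below rests on the tag that named the cell's hashtag, and the 6 tags are therefore shown.
Hashtag 1: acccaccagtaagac
Hashtag 2: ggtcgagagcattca
Hashtag 3: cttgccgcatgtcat
Hashtag 4: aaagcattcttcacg
Hashtag 5: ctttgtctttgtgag
Hashtag 6: tatgctgccacggta

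The 5 S100 members lie on chromosome 3 and the galectins elsewhere, in the GRCm38.p6 annotation, and all 7 are protein-coding genes. Lgals1 spans 15:78926725-78930465 and Lgals3 14:47373860-47386167. S100a13 (3:90514233-90524581), S100a4 (3:90603770-90606045) and S100a6 (3:90612894-90614414) sit in one group, and S100a11 (3:93520496-93526288) and S100a10 (3:93555117-93564645) lie 2906 kb further along. RefSeq promoter windows of 300 bases, from 250 bases before to 50 after the start of the gene, were at hand for S100a4, S100a6, S100a11, Lgals3 and S100a13. They are shown for the 4 that held a match, with capitals on the matches to the motifs searched on both strands. These were the E-box CACGTG, the D-box TTANGTAA, the AP-1 motif TGANTCA, the core AGGTCA of ROR and Rev-erb elements, the GC box GGGCGG and the TATA box TATAAA. All 4 windows are on the plus strand of GRCm38.p6.
S100a4, chr3:90603520-90603819: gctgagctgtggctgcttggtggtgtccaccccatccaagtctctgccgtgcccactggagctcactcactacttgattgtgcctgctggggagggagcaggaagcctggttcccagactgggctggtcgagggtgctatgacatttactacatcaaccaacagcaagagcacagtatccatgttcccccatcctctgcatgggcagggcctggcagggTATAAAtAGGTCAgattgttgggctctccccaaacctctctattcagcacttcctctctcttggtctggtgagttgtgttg
S100a6, chr3:90612644-90612943: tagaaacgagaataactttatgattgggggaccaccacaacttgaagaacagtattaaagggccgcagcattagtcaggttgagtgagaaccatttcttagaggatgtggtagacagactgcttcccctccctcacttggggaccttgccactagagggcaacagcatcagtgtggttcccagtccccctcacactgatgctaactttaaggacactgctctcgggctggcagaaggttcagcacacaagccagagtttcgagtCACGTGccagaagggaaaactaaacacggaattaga
S100a11, chr3:93520246-93520545: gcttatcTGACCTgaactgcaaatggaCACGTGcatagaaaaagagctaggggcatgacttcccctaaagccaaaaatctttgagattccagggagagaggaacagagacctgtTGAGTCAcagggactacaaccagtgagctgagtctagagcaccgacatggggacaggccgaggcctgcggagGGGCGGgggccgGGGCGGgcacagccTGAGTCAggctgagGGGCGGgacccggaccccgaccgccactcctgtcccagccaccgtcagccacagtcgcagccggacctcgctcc
Lgals3, chr14:47373610-47373909: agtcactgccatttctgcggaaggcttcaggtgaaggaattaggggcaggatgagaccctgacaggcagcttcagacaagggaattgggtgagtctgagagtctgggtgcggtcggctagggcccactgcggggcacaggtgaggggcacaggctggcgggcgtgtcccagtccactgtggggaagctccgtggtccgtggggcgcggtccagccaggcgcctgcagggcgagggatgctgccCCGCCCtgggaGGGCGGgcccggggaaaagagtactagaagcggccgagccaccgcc

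The 4 promoters shared no single motif. The S100a4 window held the TATA box at -31 and, directly after it, the ROR core at -24, counted from the gene's start. The S100a6 window held an E-box, the motif bound by Bmal1 and Clock among others, at 14 bases past the start. The S100a11 window held an E-box at -223, AP-1 motifs at -136 and -38, the ROR core at -243 and GC boxes at -64, -52 and -24. The Lgals3 window held GC boxes at -7 and 4, and the S100a13 window, chr3:90514185-90514484, held no match; it is set on a start further along than the gene start given above. Of 32851 promoter windows of this length, 7.15% hold the E-box, 2.32% the D-box, 7.81% the AP-1 motif, 16.3% the ROR core, 35.7% the GC box and 13.6% the TATA box.

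The expression library held 22960 barcodes and 96923402 UMIs (unique molecular identifiers, each standing for 1 captured transcript), with a median of 3469 UMIs per barcode. Of these barcodes, 22952 were also in the hashtag library, and 14879 carried a single hashtag. After the filters, 12147 T cells with 41499670 UMIs were read, from 1255 cells in hashtag 4 to 3089 in hashtag 5, with median depths of 2746 to 3743 UMIs per cell. Levels are CPM, the UMIs of a gene summed over the cells of a gate and hashtag and scaled to 1000000 UMIs of those cells. Ranges in brackets after a CPM are exact 95% Poisson intervals, and they and the intervals of shares cover counting error only. A pooled library is 1 sample and hashtags of unlabelled origin are not replicates, so no test was run, and no p-value is given; a difference is described by its size in each hashtag.

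T cells were gated by UMIs of Foxp3, Il1rl1 (the interleukin-33 receptor ST2), the NK receptor gene Klrd1, the follicular homing receptor gene Cxcr5 and the Th1-type homing receptor gene Cxcr3, in that order. The naive gate came last and needed 3 of 6 genes of naive T cells, Ccr7, Lef1 and Satb1 among them. This gave 718 Foxp3-detected cells, of which 359 also had an Il1rl1 UMI, 2075 Il1rl1-detected cells without a Foxp3 UMI, 396 Klrd1-gated, 405 Cxcr5-gated, 2731 Cxcr3-gated and 2203 naive-gated cells, with 3619 T cells left over. As a check by genes that were not used to gate, Ikzf2, a Treg transcription factor, had 967, 761, 951, 883, 996 and 550.3 CPM in Foxp3-detected cells of hashtags 1 to 6, against 143, 80.9, 95.4, 68.7, 80.1 and 64.3 CPM in naive-gated cells. Areg, the tissue repair factor of VAT-type Tregs, had 1161, 2098, 628, 1820.2, 34.6 and 22.9 CPM in Foxp3-detected cells, against 99.0, 27.0, 30.0, 83.7, 22.5 and 18.2 CPM in naive-gated cells. Ikzf2 thus marked the Foxp3 gate in every hashtag, and Areg was high in that of hashtags 1 to 4 alone. A cell with no Foxp3 UMI at these depths may still express Foxp3, so the gates without it are not free of Tregs. The filter on kept barcodes held macrophage genes low in every gate, and they summed to 6.92 to 22.9 CPM over 7 markers in Foxp3-detected cells and 7.07 to 21.6 CPM in naive-gated cells, with 1 to 5 and 2 to 6 of the markers above 0. A list of 4 monocyte or dendritic genes, on which no filter acted, differed with the members. It summed to 253, 285, 226, 316, 159 and 156 CPM in Foxp3-detected cells of hashtags 1 to 6, against 206, 173, 134, 102, 110.4 and 113 CPM in naive-gated cells. In Il1rl1-detected cells without Foxp3 it was 296 to 372 CPM in hashtags 1 to 4 and 137 and 158 CPM in hashtags 5 and 6, and in Klrd1-gated cells it reached 806 CPM in hashtag 4. Most of it was Cst3, the cystatin C gene, at 233, 268, 216, 300.3, 142 and 138 CPM in Foxp3-detected cells, while the dendritic cell gene Itgax was at 0 there. The part of such cells in the levels was not tested. The neutrophil genes S100a8, S100a9 and Retnlg were at 0 in Foxp3-detected cells of every hashtag.

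Lgals1 and Lgals3 were highest in Foxp3-detected and Il1rl1-detected cells of hashtags 1 to 4 and lowest in naive-gated or Cxcr5-gated cells. Lgals1 had 2043, 2048, 1819.5, 2379, 370.2 and 504 CPM in Foxp3-detected cells of hashtags 1 to 6, against 470.4, 432, 258, 326, 179 and 190.1 CPM in naive-gated cells. Il1rl1-detected cells without Foxp3 had 2254, 2589, 1929, 2294, 534 and 350.1 CPM of Lgals1, and Cxcr3-gated cells 1543, 1248, 1226, 1211, 489 and 459 CPM. Of these 4 gates the naive gate was the lowest for Lgals1 in each hashtag, and the levels of hashtags 5 and 6 lay below those of hashtags 1 to 4 in each of these gates.

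Lgals3 had the widest span of the 7 genes. It had 464, 537, 461, 598, 45.0 and 55.0 CPM in Foxp3-detected cells of hashtags 1 to 6, against 96.3, 80.9, 17.7, 38.8, 17.0 and 20.7 CPM in naive-gated cells. In Il1rl1-detected cells without Foxp3 it had 539.9, 667, 445, 718, 39.7 and 50.02 CPM, with intervals of 509 to 572, 631 to 705, 409.8 to 481 and 678 to 761 CPM in hashtags 1 to 4. The intervals of hashtags 2 and 4 overlapped each other and lay above those of hashtags 1 and 3. Cxcr3-gated cells held 248, 202, 169, 172, 46.1 and 31.7 CPM of Lgals3, between the ST2 gates and the naive gate in hashtags 1 to 4. From the highest unit, Il1rl1-detected cells of hashtag 4 at 718 CPM, to the lowest, Cxcr5-gated cells of hashtag 5 at 9.61 CPM (3.86 to 19.8), the level differed 74.8-fold over 46 units of gate and hashtag with at least 20 cells.

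The rest of the galectin family was low, and its measured members did not share that span. Lgals8, a cytosolic galectin that marks damaged endosomes, had 51.9, 52.0, 38.3, 65.3, 51.9 and 27.5 CPM in Foxp3-detected cells and 33.0, 27.0, 26.5, 38.8, 31.6 and 33.4 CPM in naive-gated cells of hashtags 1 to 6. Lgals9, which encodes the Tim-3 ligand galectin-9, had 68.5, 45.8, 63.1, 60.1, 45.0 and 87.1 CPM in Foxp3-detected cells and 63.3, 54.0, 51.3, 41.8, 58.0 and 51.6 CPM in naive-gated cells. Neither gene had hashtags 5 and 6 both below hashtags 1 to 4 in these gates. The other 5 galectin genes read, Lgals2, Lgals4, Lgals7, Lgals12 and Lgalsl, had 2 to 316 UMIs in all T cells together.

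S100a4 and S100a6 were the S100 genes with the largest differences between gates. S100a4 had 3304, 3859.6, 3279, 4207, 408 and 532 CPM in Foxp3-detected cells of hashtags 1 to 6, against 457, 415, 308, 359, 97.1 and 106 CPM in naive-gated cells. Il1rl1-detected cells without Foxp3 were close to the Foxp3-detected cells at 3698, 4458, 2976, 4147, 576 and 383 CPM of S100a4, and Cxcr3-gated cells held 1628, 1736, 1388, 1494, 445 and 367 CPM. The Klrd1 gate split by hashtag, with 1017, 1438, 1298, 2001, 119 and 117 CPM of S100a4, so that in hashtags 5 and 6 it sat at about the naive level.

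S100a6, which encodes calcyclin, was highest in the ST2 gates of hashtags 1 to 4 as well, but in Cxcr3-gated cells of hashtag 5 and Cxcr5-gated cells of hashtag 6. It had 5563, 7049.6, 5346, 7545, 529 and 459 CPM in Foxp3-detected cells, against 1086, 669, 417, 642, 213 and 234 CPM in naive-gated cells. Il1rl1-detected cells without Foxp3 held 6020.3, 8196, 5639, 7421, 761 and 525 CPM, with intervals of 5918 to 6124, 8068 to 8326, 5513 to 5766 and 7289 to 7555 CPM in hashtags 1 to 4. As for Lgals3, hashtags 2 and 4 were above hashtags 1 and 3, and here no pair of the 4 intervals overlapped. In Foxp3-detected cells hashtags 2 and 4 were again above 1 and 3, with hashtag 4 the highest in place of 2. Cxcr3-gated cells held 2655, 2458, 2195, 2296, 866 and 596 CPM of S100a6, in hashtags 5 and 6 more than the Foxp3-detected cells tagged alike. In naive-gated cells hashtag 1 was the highest for S100a6, so the order did not run through every gate.

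S100a10, the annexin A2 partner also called p11, was present at high levels in every gate and differed less between them. It had 3053, 3059, 2809, 3280.1, 1038 and 899 CPM in Foxp3-detected cells of hashtags 1 to 6, against 927, 869, 596, 636, 494 and 427 CPM in naive-gated cells. S100a11, which binds annexin A1, had 1255, 1320.5, 1010.2, 1319, 318 and 422 CPM in Foxp3-detected cells, against 388, 367, 246, 227, 155 and 152 CPM in naive-gated cells. S100a11 was the only 1 of the 7 whose highest gate in both hashtag 5 and hashtag 6 was the Cxcr5 gate, at 622 and 669 CPM (566 to 682 and 586 to 760.2). In Foxp3-detected cells of those hashtags it had 318 and 422 CPM, and in Cxcr3-gated cells 529 and 473 CPM. S100a13 varied least, with 498, 447, 402, 528, 208 and 220.1 CPM in Foxp3-detected cells, against 269.6, 329, 203, 299, 159.9 and 144 CPM in naive-gated cells. Its gene overlaps S100a1 in the annotation (S100a1 ends at 90514330). Whether counting used strand is not stated, so reads of the overlap cannot be told apart. The overlap lies at the start of S100a13, a plus-strand gene, while the libraries were of 3′ ends. Its part in the S100a13 level was not tested. S100a1 itself had 399 UMIs in all T cells, against 13741 for S100a13.

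**Figure D1:**
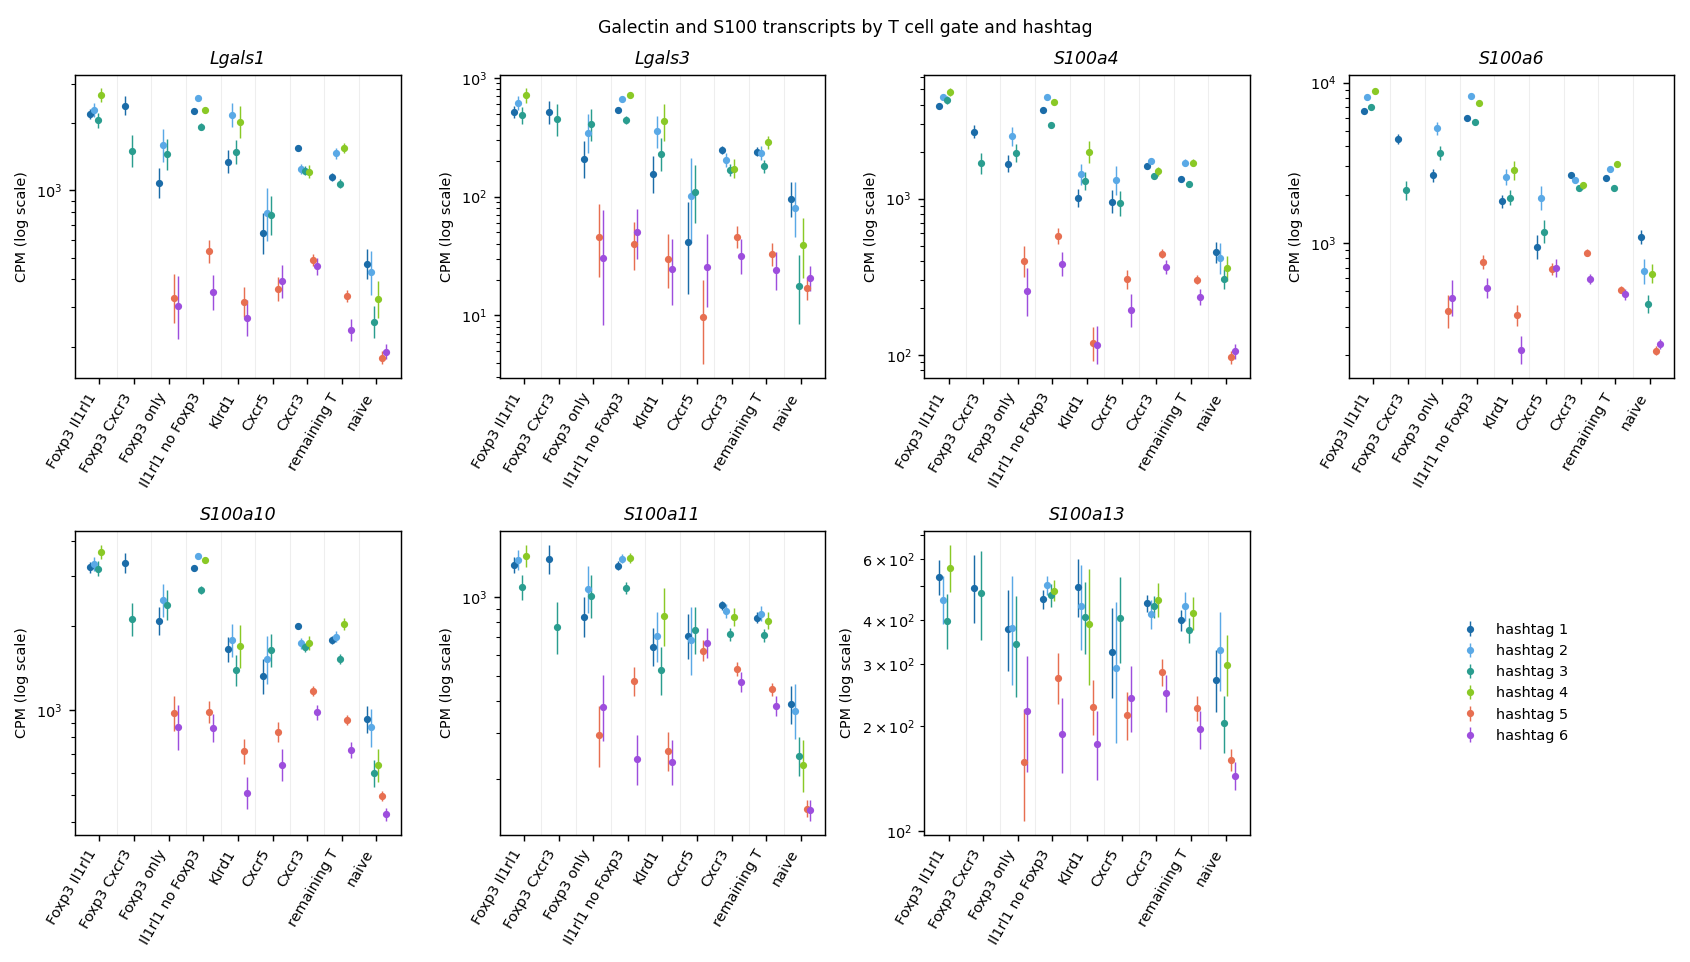
Level of each gene (CPM, log axis) by T cell gate, for gates with at least 20 cells in a hashtag. Points are hashtags 1 to 6 and bars exact 95% Poisson intervals; the ST2 gates of hashtags 1 to 4 lie highest for most genes, and the naive gate of hashtags 5 and 6 at or near the bottom.

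Over the 46 units, the ratio of the highest to the lowest level was 74.8 for Lgals3, 49.6 for S100a4, 41.6 for S100a6, 14.9 for Lgals1, 9.45 for S100a11, 8.58 for S100a10 and 3.92 for S100a13. The highest unit was Foxp3 Il1rl1 double-detected cells of hashtag 4 for 6 of the 7 genes, with 8857 CPM of S100a6 and 4816 CPM of S100a4, and Il1rl1-detected cells without Foxp3 of the same hashtag for Lgals3. Many neighbours in the order of the gates did not differ beyond counting error. In hashtag 1, 3 of the 8 neighbouring pairs of gates had overlapping intervals for S100a4 and for S100a6, 6 for Lgals1, 7 for Lgals3 and 8 for S100a13. The first and second gates overlapped for S100a4 in hashtags 1 and 2: Foxp3 Il1rl1 double-detected cells had 3905 and 4466 CPM and Il1rl1-detected cells without Foxp3 3698 and 4458 CPM.

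Tregs were next set against naive-gated cells within each hashtag. All 7 genes were higher in Foxp3-detected cells than in naive-gated cells of every hashtag, where 18.8% of the 8001 genes compared were. Genes compared reach down to 10 CPM on a side, where the sign in a hashtag can rest on few UMIs. The members had 208 to 2462 CPM over all T cells, so this share, like those below, is no background matched for level. For S100a13 the intervals of both gates overlapped in hashtag 5, at 158 to 267 against 149 to 172 CPM, and in hashtag 2. Lgals1, Lgals3, S100a4, S100a10 and S100a11, that is 5 of 7, were at least 2-fold higher in every hashtag, and 1.94% of all genes were. For Lgals3 this rests on 13 and 12 UMIs in Foxp3-detected cells of hashtags 5 and 6. At a fixed depth, read further on, its share there was not separable from that of naive-gated cells. The median log2 ratio of CPM over the 6 hashtags was 3.03 for S100a4 (range over hashtags 2.08 to 3.55), which placed it 40th of 8001 genes. It was 2.87 for S100a6 (0.98 to 3.68) and 2.47 for Lgals3 (1.45 to 4.64). S100a6 missed the 2-fold mark only in hashtag 6, by 0.98 against 1. The ratio was 2.18 for Lgals1 (1.06 to 2.86), 1.76 for S100a10 (1.07 to 2.36), 1.76 for S100a11 (1.05 to 2.53) and 0.72 for S100a13 (0.39 to 0.98). Over all genes the median was 0.23, and over the 7 it was 2.18. Hashtags 5 and 6 had the smallest ratios of the 6 for every gene but S100a13, whose ratio in hashtag 2 was smaller than in hashtag 6. The 2-fold mark is close for several genes in hashtags 5 and 6, and the count of 5 came to 1 with trimmed-mean (TMM) scaling and to 2 with a naive gate of 2 of 6 genes. Naive-gated cells were deeper, at a median of 3986 UMIs per cell against 2771 to 3634 in the Foxp3 gates. Shares of cells at a fixed depth are given further on for Lgals3, S100a4, S100a10 and S100a13. The part of depth in the ratios themselves was not tested.

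The Il1rl1, Cxcr3 and Cxcr5 gates shared the naive-gated cells as their baseline with that comparison, so their values stand side by side and not as separate evidence. Il1rl1-detected cells without Foxp3 had all 7 genes higher than naive-gated cells in every hashtag (17.3% of 7913 genes were) and 3 of 7 at least 2-fold higher (1.19%), namely Lgals3, S100a4 and S100a6. The median log2 ratio was 3.14 for S100a4 (1.86 to 3.53), 2.998 for S100a6 (1.17 to 3.75) and 2.73 for Lgals3 (1.25 to 4.58). Lgals1 reached 2.42 (0.89 to 2.90), with hashtag 6 again the smallest. Without hashtag 6, the count at 2-fold was 5 of 7.

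In Cxcr3-gated cells all 7 genes were higher than in naive-gated cells of every hashtag (22.5% of 7800 genes), and 4 of 7 were at least 2-fold higher (1.12%): Lgals1, S100a4, S100a6 and S100a11. Their median log2 ratios were 1.62, 2.05, 1.85 and 1.59. The S100a4 ratio varied little over hashtags, from 1.79 to 2.20, while the S100a4 levels on both sides were lower in hashtags 5 and 6. With the wider naive gate the count of 4 came to 1. The Cxcr5 gate, of follicular helper type, was read in 5 hashtags and had 4 of 7 genes higher throughout (18.8%) and none at 2-fold (1.29% of 7800 genes). S100a11 differed most there beside S100a4, by 0.87, 0.91, 1.61, 2.01 and 2.14 on the log2 scale in hashtags 1, 2, 3, 5 and 6. Lgals3 had no common direction in the Cxcr5 gate, with -1.11, 0.39, 2.61, -0.73 and 0.38, each from few UMIs.

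**Figure D2:**
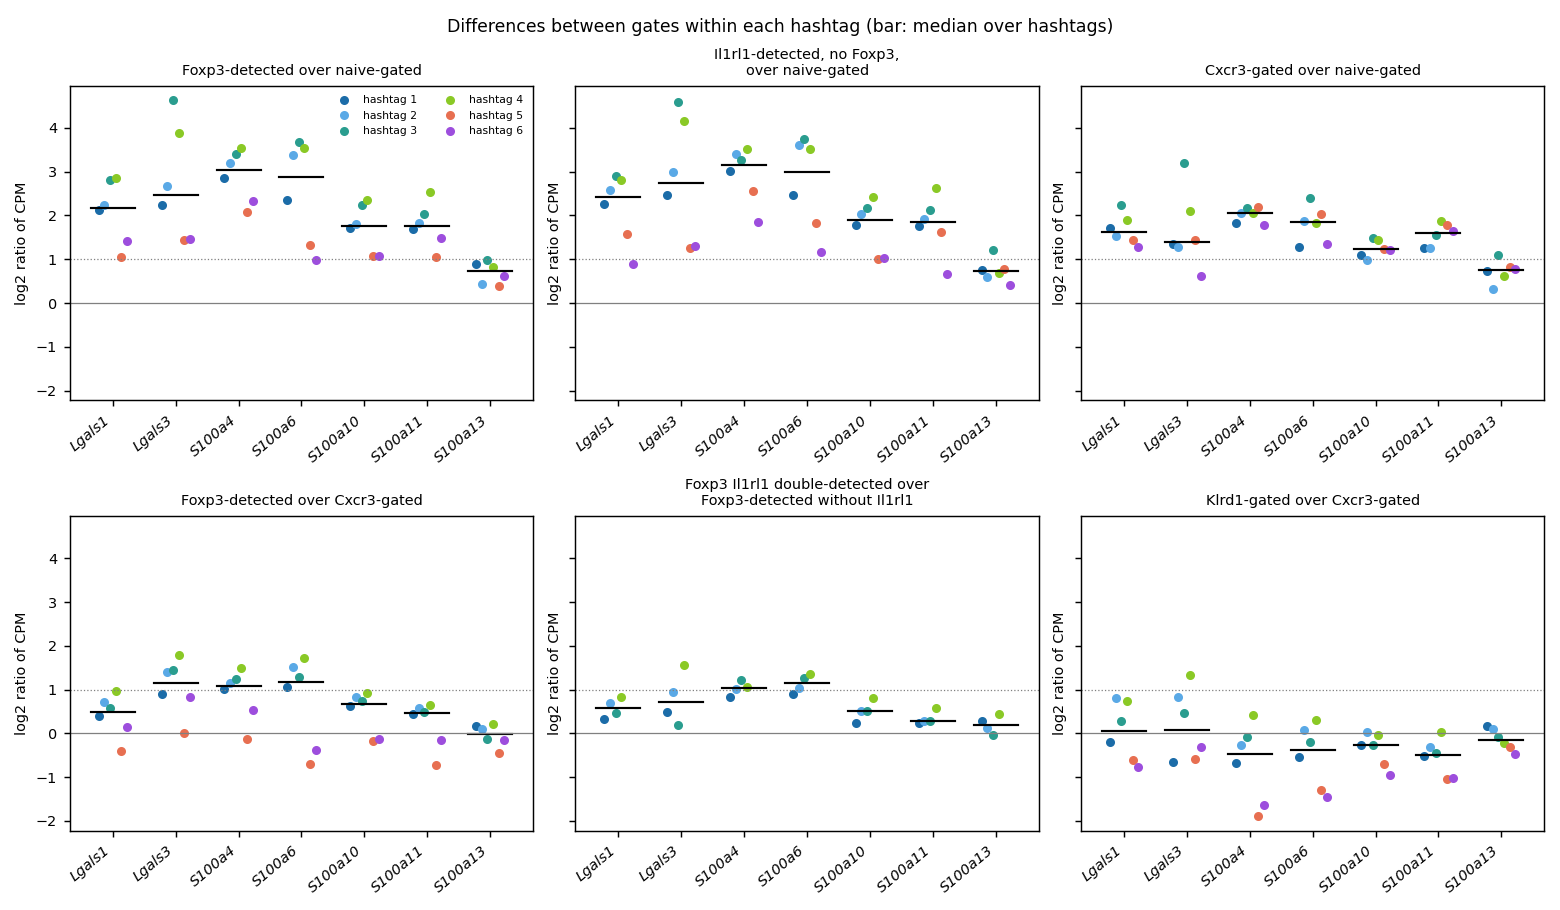
Log2 ratio of CPM between 2 gates within each hashtag for the 7 genes, in 6 comparisons that leave out the Cxcr5 and Foxp3-undetected ones. Points are hashtags, black bars their median, the dotted line is 2-fold; the ratios to naive-gated cells drawn here lie above 0, and Foxp3-detected over Cxcr3-gated cells differ in sign between hashtags 1 to 4 and hashtag 5 for most genes.

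Set against all T cells without a Foxp3 UMI, Foxp3-detected cells held more of 5 of the 7 genes in every hashtag (7.71% of 8002 genes), and none was 2-fold higher throughout (0.0750%). S100a4, Lgals3, S100a6, Lgals1 and S100a10 were the 5, with median log2 ratios of 0.72 (0.43 to 1.47), 0.68 (0.38 to 1.18), 0.59 (0.21 to 0.91), 0.43 (0.13 to 0.92) and 0.45 (0.28 to 0.67). S100a11 and S100a13 had mixed signs. Set against Cxcr3-gated cells alone, only Lgals3 was higher in Foxp3-detected cells of every hashtag (5.75% of 8070 genes), and none of the 7 at 2-fold (0.285%). Its ratio in hashtag 5 was 0.01, so that call rests on a difference of almost nothing there. In hashtags 1 to 4 the S100a6 ratio was 1.07, 1.52, 1.28 and 1.72 and in hashtags 5 and 6 -0.71 and -0.37. S100a4 gave 1.02, 1.15, 1.24 and 1.49 in hashtags 1 to 4 and -0.12 and 0.54 in hashtags 5 and 6. Foxp3-detected cells therefore held more S100a6 than Cxcr3-gated cells in 4 hashtags and less in 2. These Foxp3-detected cells numbered 80 in hashtag 5 and 57 in hashtag 6. The beta-globin gene Hbb-bs had 4559.7 CPM in Foxp3-detected cells of hashtag 4 and 4993 CPM in hashtag 5, against 67.0 to 220.4 CPM in the other 4 hashtags. Other gates held red cell transcripts too. A list of 3 red cell genes summed to 1941, 2895 and 1525 CPM in Cxcr3-gated cells of hashtags 1, 2 and 5. In hashtags 3, 4 and 6 it was 95.1, 117 and 122 CPM there, and in naive-gated cells of hashtag 3 it was 5130.5 CPM. The part of red cell transcripts in the ratios was not tested.

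Klrd1-gated cells had no member that was higher or at least 2-fold higher than in Cxcr3-gated cells of every hashtag (2.68% and 0.114% of 7904 genes). The difference ran by hashtag. For S100a4 the log2 ratio was -0.47 in the median and -0.68, -0.27, -0.09, 0.43, -1.89 and -1.64 in hashtags 1 to 6, so Klrd1-gated cells of hashtags 5 and 6 held less S100a4 than the Cxcr3-gated cells tagged alike. Lgals1 gave -0.20, 0.81, 0.28, 0.75, -0.62 and -0.76, higher in hashtags 2, 3 and 4 and lower in 1, 5 and 6. The Klrd1 gate held 20 to 119 cells per hashtag.

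Foxp3-detected cells were divided by an Il1rl1 UMI in hashtags 1 to 4, the only ones with 20 cells on each side. A cell with no Il1rl1 UMI may still express it, so the side without it is not free of ST2-positive Tregs. Foxp3 Il1rl1 double-detected cells (342 in those hashtags) held more of 6 of the 7 genes than the 239 Foxp3-detected cells without Il1rl1 in each of the 4 hashtags, and 7.78% of 8215 genes did so. None was 2-fold higher in all 4 (0.353%), but S100a6 and S100a4 were near. S100a6 differed by 0.89, 1.02, 1.26 and 1.37 on the log2 scale in hashtags 1 to 4 and S100a4 by 0.83, 1.01, 1.22 and 1.06. Without hashtag 1 both passed 2-fold. Lgals3 differed by 0.49, 0.95, 0.19 and 1.56, Lgals1 by 0.32, 0.69, 0.48 and 0.83 and S100a10 by 0.23, 0.51, 0.50 and 0.80. S100a11 had smaller differences of 0.23, 0.27, 0.28 and 0.59, and S100a13, at 0.27, 0.13, -0.03 and 0.45, had no common sign. Median depth, over the cells of all 6 hashtags, was 3634 UMIs per cell in the double-detected gate. It was 3025 and 2771 in the Foxp3 gates with and without Cxcr3, and the part of depth in this split was not tested.

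Genes that work with these proteins moved unevenly between the double-detected cells and the Foxp3-detected cells without Il1rl1. Their lists were chosen with earlier results of these data known, so the counts below are descriptions and not separate evidence. Of 14 cytoskeleton and membrane genes, 9 were higher and 1 lower in each of the 4 hashtags, where 7.78% of all genes were higher and 13.1% lower, with a list median of 0.29 against -0.06 over all genes. The nuclear lamina gene Lmna differed by 1.47 (0.95 to 2.16), the intermediate filament gene Vim by 0.90 (0.47 to 1.1998) and the LIM protein gene Crip1 by 0.66 (0.44 to 0.81). Of 10 annexins and S100 partners measured, 1 was higher and 1 lower throughout, about the shares over all genes: Anxa1, the S100a11 partner, by 0.64 (0.60 to 0.96), and Anxa7 by -0.48 (-0.70 to -0.20). Anxa2, the partner of S100a10, did not follow it, with a median of -0.78 and a range of -1.11 to 1.99. Of 8 galectin ligands and glycan enzymes measured, none was higher and 2 were lower, and 13.1% of all genes were lower: St6gal1, whose sialic acid cap blocks galectin-1 binding, by -0.996 (-1.78 to -0.30), and the integrin gene Itgb1 by -0.94 (-1.30 to -0.53). St6gal1 stood at 13.7 CPM in double-detected cells and 29.2 CPM in Foxp3-detected cells without Il1rl1. Those sides held 1538578 and 752976 UMIs of all genes over the 4 hashtags, so the St6gal1 ratio of each hashtag rests on few UMIs. Against all T cells without a Foxp3 UMI, 8 of the 14 cytoskeleton and membrane genes were higher and 1 lower in Foxp3-detected cells of every hashtag (7.71% and 3.09% of all genes), led by the actin-capping gene Capg at 0.80, Vim at 0.54 and Itgb7 at 0.43. Ahnak, the scaffold that the S100a10 and annexin A2 complex binds, was the only 1 of the 10 annexins and partners higher throughout, near the 7.71% over all genes, at 0.30 (0.11 to 0.46).

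Hashtags 5 and 6 stood below hashtags 1 to 4 in the same gate for nearly all members, a division taken up because earlier results of these data had shown it and not groups of the study. In Foxp3-detected cells, the lowest of hashtags 1 to 4 was above the higher of hashtags 5 and 6 for 7 of 7 genes (19.3% of 9506 genes), and at least 2-fold above for 6 of 7 (5.34%), S100a13 being the exception. The gap was 10.1-fold for S100a6, with 5346 CPM in hashtag 3 against 529 CPM in hashtag 5. In Il1rl1-detected cells without Foxp3 it held for 7 of 7 genes (29.7% of 9009 genes) and at 2-fold for 6 of 7 (6.44%), with Lgals3 at 445 CPM in hashtag 3 against 50.02 CPM in hashtag 6. In Klrd1-gated cells it held for 7 of 7 (11.9% of 10583) and at 2-fold for 5 of 7 (7.33%), with S100a4 at 1017 CPM or more in hashtags 1 to 4 against 119 and 117 CPM in hashtags 5 and 6. In Cxcr3-gated cells it again held for 7 of 7 (18.8% of 8757), and 4 of 7 passed 2-fold (1.37%): Lgals1, Lgals3, S100a4 and S100a6. In naive-gated cells it held for 6 of 7 (9.62% of 9286), and S100a4 alone passed 2-fold (0.528%), at 308 to 457 CPM in hashtags 1 to 4 against 97.1 and 106 CPM in hashtags 5 and 6. The difference between hashtags was thus present also in cells with no UMI of the other gate genes. Naive-gated cells of hashtags 1 to 4 were few, 49 to 141 per hashtag, while hashtags 5 and 6 had 1093 and 739.

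The share of cells with a UMI was read after each cell had been thinned to 2000 UMIs, because depth differed between gates. No class of cell in the library is known to lack these genes, so the naive-gated cells of hashtags 5 and 6 (median 3936 and 4126 UMIs) serve as the floor. Lgals3 was found in 51.6, 54.1, 57.3, 52.4, 8.33 and 7.14% of thinned Foxp3-detected cells of hashtags 1 to 6, against 9.64, 11.4, 3.91, 6.33, 3.84 and 3.55% of naive-gated cells. Without thinning the Lgals3 shares were 61.4, 67.7, 60.6, 68.7, 11.2 and 12.3% and 15.5, 16.3, 6.38, 9.52, 6.77 and 8.80%. In hashtags 5 and 6 the Foxp3-detected share at fixed depth, with intervals of 3.12 to 17.3% and 1.98 to 17.3%, was not separable from the floor. About 1 in 2 Foxp3-detected cells of hashtags 1 to 4 therefore gave no Lgals3 UMI at this depth.

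S100a4 was found in 91.1, 90.8, 84.5, 95.1, 36.1 and 33.9% of thinned Foxp3-detected cells, against 33.7, 38.6, 36.7, 30.4, 19.6 and 17.9% of naive-gated cells. In Foxp3-detected cells of hashtags 5 and 6 its share was above the floor, with intervals of 25.1 to 48.3% and 21.8 to 47.8%, against 17.2 to 22.1% and 15.2 to 20.9% in naive-gated cells. S100a10 was the most widely found, in 96.8, 95.4, 95.5, 97.6, 79.2 and 83.9% of Foxp3-detected and 66.3, 61.4, 57.8, 60.8, 62.5 and 54.8% of naive-gated cells. For S100a10 the naive-gated shares of all 6 hashtags lay close together, while its CPM in the same cells ran from 427 to 927. S100a13 was found in 64.2, 61.5, 55.5, 61.0, 27.8 and 30.4% of Foxp3-detected and 34.9, 40.9, 32.8, 36.7, 27.9 and 23.9% of naive-gated cells. In Foxp3-detected cells of hashtags 5 and 6 its intervals, 17.9 to 39.6% and 18.8 to 44.1%, held the floor. Cells under 2000 UMIs were left out, 3.13% of the naive gate, 6.41% of the double-detected gate, 16.5% and 23.5% of the other Foxp3 gates and 14.02% of the Il1rl1 gate.

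**Figure D3:**
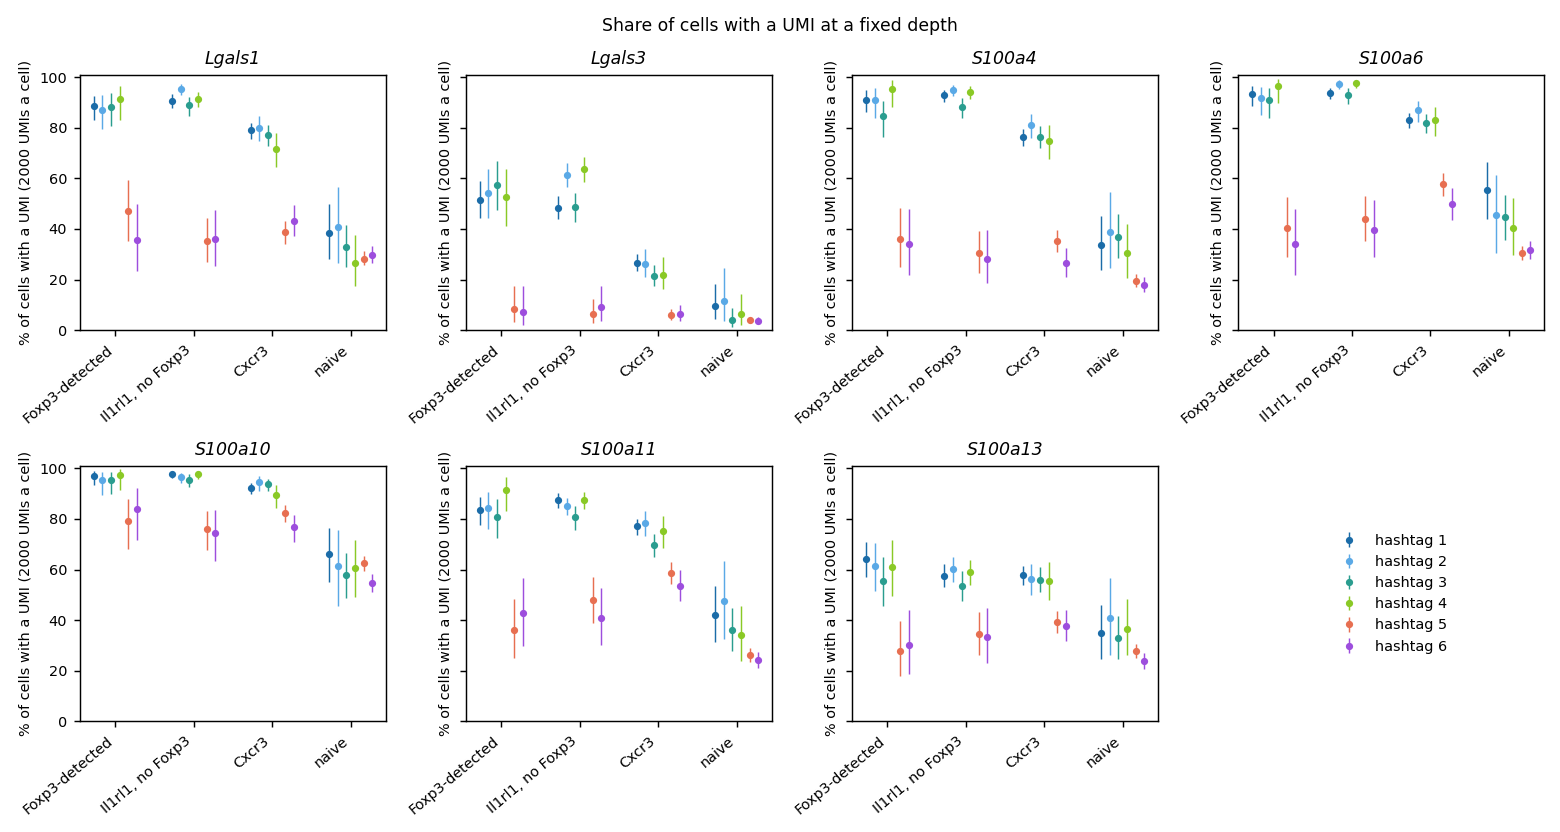
Percent of cells with at least 1 UMI of each gene after thinning to 2000 UMIs, by gate and hashtag, with exact 95% Clopper-Pearson intervals. Lgals3 reaches 51.6 to 57.3% of Foxp3-detected cells in hashtags 1 to 4 and 8.33 and 7.14% in hashtags 5 and 6.

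In the Il1rl1, Foxp3 and Cxcr3 gates, cells with more S100a4 tended to have more S100a6 within each hashtag. No such tendency was seen in the naive gate of hashtags 5 and 6, where S100a4 was low. At 2000 UMIs per cell, Spearman's rho between S100a4 and S100a6 was 0.41 to 0.65 over hashtags in Il1rl1-detected cells without Foxp3, 0.17 to 0.73 in Foxp3-detected cells, 0.20 to 0.42 in Cxcr3-gated cells and -0.03 to 0.40 in naive-gated cells of 5 hashtags. The 0.17 in Foxp3-detected cells came from only 56 cells of hashtag 6. In the naive gate rho between S100a4 and S100a6 was 0.40, 0.21 and 0.28 in hashtags 1, 3 and 4, from 79 to 128 cells each, and -0.03 in both hashtag 5 (1068 cells) and hashtag 6 (732 cells). Naive-gated cells of hashtags 5 and 6 held 97.1 and 106 CPM of S100a4, few UMIs per cell, and the part of such low counts in rho was not tested. For Lgals1 and S100a4 rho was 0.37 to 0.57 in Il1rl1-detected cells and -0.04 to 0.19 in naive-gated cells. For S100a13 and S100a10 it was 0.14 to 0.23 in Il1rl1-detected cells. Cells of a hashtag share a library and a staining, so these are descriptions.

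Over 35 gate and hashtag units of at least 50 cells, all 21 pairs of members were alike, with Pearson's r of log2(CPM + 1) from 0.853 (Lgals3 and S100a11) to 0.982 (S100a4 and S100a6). Among 2602 other genes at 50 CPM or more, the gene most like Lgals3, S100a4, S100a6 and S100a10 was Vim, at r of 0.973, 0.975, 0.970 and 0.972. The next for these were Crip1 for Lgals3 (0.961), Ahnak for S100a4 (0.961), Dusp1 for S100a6 (0.963) and H2-D1 for S100a10 (0.968), and the third were Anxa1 (0.952), Klrg1 for S100a4 (0.956) and for S100a6 (0.960), and Samsn1 (0.954). Lgals1 was closest to Gna15 (0.965), Vim (0.963) and Ahnak (0.963), and S100a13 to Gna15 (0.948), Ahnak (0.931) and Iqgap1 (0.926). S100a11 had other neighbours: Acot7 (0.968), Clic1 (0.953) and Gng2 (0.944). The units share the library, the hashtags and the step between hashtags 1 to 4 and hashtags 5 and 6, and r only describes them.

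The S100 cluster of chromosome 3 was read gene by gene, since silent and active members lie beside each other. Between S100a4 and S100a6, which are 6.848 kb apart, lies S100a5 with 14 UMIs in all 12147 T cells, against 58711 for S100a4 and 102186 for S100a6. Between S100a13 and S100a4, 79.19 kb apart, lie S100a14, S100a16, S100a3 and S100a2 with 6, 125, 62 and 35 UMIs. Past S100a6, the neutrophil genes S100a8 and S100a9 had 8 and 11 UMIs. S100a11 and S100a10, 28.83 kb apart, have no S100 gene between them. UMIs from 3′ ends are not scaled by gene length, so these are counts of captured molecules. Of the 13 other S100 genes and partners in that list, S100a1 and the S100-binding gene S100pbp alone reached 10 CPM in a gate compared. S100pbp had 16.6, 18.7, 24.9, 15.7, 17.3 and 32.1 CPM in Foxp3-detected and 22.0, 27.0, 23.0, 23.9, 16.6 and 14.2 CPM in naive-gated cells. Genes named as pseudogenes of members had few UMIs: S100a11-ps had 1 UMI, and Lgals1-ps1 and Lgals1-ps2 had 0. How reads that match both a member and such a copy were counted was not examined.

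**Figure D4:**
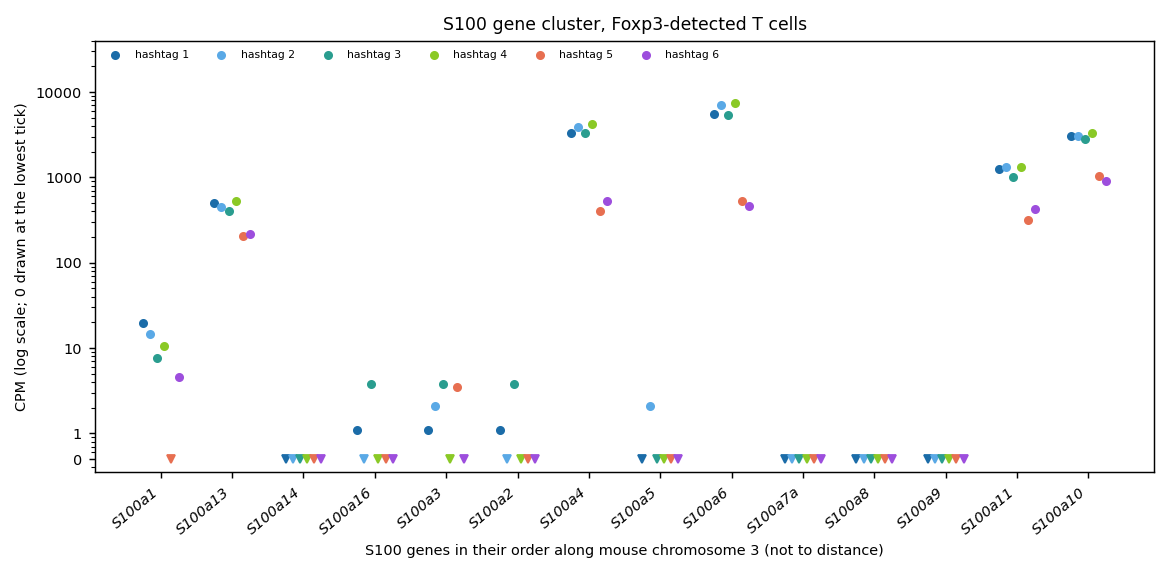
Level (CPM, log axis, 0 drawn as triangles at the lowest tick) of S100 genes in their order along chromosome 3, in Foxp3-detected cells of hashtags 1 to 6. S100a13, S100a4, S100a6, S100a11 and S100a10 stand above 100 CPM in every hashtag, and the genes between them stay below.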

How the data were processed

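Per the labels' protocols, the cells gave 3′ v3.1 single-cell libraries (10x Genomics) of transcripts and of hashtags. Both deposited matrices hold raw UMI or tag counts per barcode, not normalised. Per the submitters' processing notes, mm10, Seurat 3 and Cell Ranger 6.0 were used, while the matrix header gives cellranger 4.0.0. From the deposited counts, CPM were computed here for sums per gate and hashtag. Each barcode was given a hashtag by HTODemux at a positive quantile of 0.99 (R 4.3.3, Seurat 5.3.0), from the 6 tags above 1000 counts: 14879 single, 5804 double and 2269 without a call. Barcodes with mixed hashtags were dropped; 2 cells that share a hashtag in a droplet pass unnoticed. Kept barcodes had at least 500 genes, under 10% mitochondrial UMIs, a T cell receptor or CD3 gene UMI and under 2 UMIs of macrophage, B cell and endothelial markers. Log2 ratios used a prior count of 0.5, genes at 10 CPM or more on a side and hashtags with at least 20 cells on both sides. Ratios were tested on simulated data. Python 3.11.15, numpy 2.4.6, scipy 1.17.1 and edgeR 4.0.16 (TMM alternative) were used. All 7 members were named, and from each list up to 3 genes with 1 sign in every hashtag and the largest median ratios. The reference names held 55141 of the 55487 gene IDs. Promoters are RefSeq's, build GRCm38.p6; Lgals1 and S100a10 were not matched there. The members, lists, gates and alternatives were chosen with earlier results of these data known. The planned counts were read under other hashtag, cell, gate and scaling rules and without each hashtag. The full gene list of the naive gate is not reported here.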

Additional observations from a re-analysis of the deposited data

Results flagged for a closer look

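T cells to which no hashtag could be given, 1633 barcodes used in no comparison above, showed the same members high in ST2-positive cells. In these, Il1rl1-detected cells (67) held more of each gene than naive-gated cells (652), and no control exists for them beyond the naive-gated cells themselves. Unlike above, the gates could not be compared within a hashtag, so these ratios may include the step between hashtags. Naive-gated S100a4 was near the 97.1 and 106 CPM of hashtags 5 and 6. Il1rl1-detected S100a4 lay between the 576 and 383 CPM of hashtags 5 and 6 and the 2976 to 4458 CPM of hashtags 1 to 4, read without Foxp3. The part of that step was not tested. The log2 ratio was 1.78 for Lgals1 (715 CPM in Il1rl1-detected and 209 CPM in naive-gated cells), 2.09 for Lgals3, from 19 and 48 UMIs, and 3.28 for S100a4 (1075 and 110.5 CPM). It was 2.65 for S100a6, 1.59 for S100a10, 2.12 for S100a11 and 1.0 for S100a13. These are values of 1 pool of unlabelled origin and were not tested.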

How the results depend on the processing

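Of 125 counts of members recomputed under an alternative, 111 stayed within 1.5 times the value reported and 14 did not. The reported count was 0 for Foxp3-detected over Foxp3-undetected and over Cxcr3-gated cells, and for double-detected over other Foxp3-detected cells. It was also 0 for Cxcr5-gated over naive-gated and Klrd1-gated over Cxcr3-gated cells. A count of 0 cannot fall, so the 111 say little about the counts above 0. Of 875 recomputed log2 ratios of single members, 403 moved beyond the counting interval of the value reported; the median move was 0.067, 90% moved by up to 0.297, and the widest, 2.22, was that of Lgals3 in the Cxcr5 gate with 2 UMIs needed. Of 168 levels, 164 moved when mitochondrial and ribosomal protein genes left the scale, which raised all by 1.34 to 1.81 times, and all 28 shares moved when cells were thinned to 1000 UMIs, to 0.498 to 0.943 times their value. No ratio with 1 sign in every hashtag changed sign. For Foxp3-detected over naive-gated cells, the count of 5 at 2-fold came to 3 without the filter on other cell types, to 3 with no UMI of such markers allowed, to 2 with a naive gate of 2 of 6 genes, to 2 scaled without mitochondrial and ribosomal protein genes and to 1 with TMM scaling. For double-detected over other Foxp3-detected cells, the count of 0 came to 1 with TMM scaling and to 2 without hashtag 1. For Cxcr3-gated over naive-gated cells, the count of 4 came to 1 with a naive gate of 2 of 6 genes. For Cxcr5-gated over naive-gated cells, the count of 0 came to 3 with 2 UMIs needed for the gate (1 hashtag left), to 3 with at least 50 cells (2 hashtags left), to 1 without hashtag 1 and to 1 without hashtag 6. For Il1rl1-detected cells without Foxp3 over naive-gated cells, the count of 3 came to 1 with hashtags called at 3 times the next tag and to 5 without hashtag 6. The cause of these moves was not tested, beyond the fewer hashtags where stated. TMM put the median over all genes at -0.12 instead of 0.23 for Foxp3-detected over naive-gated cells; S100a4 then stood at 2.85 and S100a13 at 0.41, above that shift. No paired analysis was possible because 1 pooled library has no replicate numbers. Depth limits Lgals3 most: in hashtags 5 and 6 its levels rest on few UMIs.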

Other observations

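Barcodes set aside for markers of other cell types also held these transcripts. Their levels are given without a split by hashtag, unlike those of T cells, and the part of T cell transcripts in them was not tested. The 155 macrophage-marked barcodes had 345 CPM of Lgals3, 861 CPM of S100a4 and 1948 CPM of S100a6. The 160 endothelial-marked barcodes had 80.5 CPM of Lgals3 and 238 CPM of S100a4, but 511 CPM of S100a13. The 45 B cell-marked barcodes, with a median of 11165 UMIs, had 65.0 CPM of Lgals3 and 392 CPM of S100a4. Lgals3 was thus lower in macrophage-marked barcodes than in Foxp3-detected cells of hashtags 1 to 4, which had 464, 537, 461 and 598 CPM. It was higher in these barcodes than in Foxp3-detected cells of hashtags 5 and 6, which had 45.0 and 55.0 CPM. S100a13 of the endothelial-marked barcodes had an interval of 467 to 558 CPM, and that of Foxp3 Il1rl1 double-detected cells of hashtag 4, the highest T cell unit at 565 CPM, was 482 to 658 CPM, so these overlapped.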
